A study of Mus musculus with 9 samples.

Results

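Matrix metalloproteases (Mmp genes), the Adamts proteases and the tissue inhibitors of metalloproteases (Timp genes) were followed in primary mouse embryo fibroblasts (MEFs) that lacked the transcriptional corepressor Tgif1 or had gone through more passages. Members were all probe-sets whose gene symbol was Mmp followed by a number, with or without a or b, Adamts followed by a number, or Timp1 to Timp4. Of 45101 probe-sets on the arrays, 70 belonged to these families. They covered 37 genes, with 29 probe-sets of 18 Mmp genes, 28 of 15 Adamts genes and 13 of 4 Timp genes. The cells were Tgif1 -/- MEFs at passage 3 (Tgif1 null P3), wild type MEFs at passage 5 (P5) and wild type MEFs at passage 3 (P3). Each group had 3 arrays from independent cultures. All groups shared a mixed C57BL/6J x 129Sv/J background, isolation from embryos of day 13.5, medium with fetal bovine serum and passage by re-plating, and none was treated. The study asked whether expression in the null cells at P3 overlaps with that of wild type cells on their way to crisis. No null cells of passage 5 were on the arrays, so the genotypes were compared at the same passage at P3 only. The null against P5 differs in both genotype and passage, which cannot be told apart in that comparison.

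Mmps are zinc proteases that are made as inactive precursors and cut collagens, gelatin, proteoglycans and other matrix proteins outside the cell. Adamts proteases carry thrombospondin repeats that tie them to the matrix, and cut proteoglycans or trim procollagens. Timps bind the active site of these proteases and block it, and fibroblasts are a main source of all 3 families in connective tissue, where matrix proteases are also known as part of the secretion of senescent cells.

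The values are log2 signals, 1 per probe-set and array, so that a difference of 1 is a doubling. No array held a signal under 2.23 and the array medians were between 2.48 and 2.50, so a gene near these values cannot show a decrease. Signals of different probe-sets depend on the probes and are not set against each other here. Tgif1 itself read 2.48, 3.21 and 2.50 in the null cultures, against 10.06, 10.07 and 10.18 at P5 and 9.82, 9.95 and 9.72 at P3, so that the arrays matched their labels, although the position of the probes relative to the deletion was not checked. A probe-set was called, and is said to have risen or fallen, at an adjusted p under 0.05 in the moderated test of limma, fitted to all 9 arrays and adjusted over all probe-sets by the Benjamini-Hochberg method. Counts at an unadjusted p under 0.05 are also given. The share of all probe-sets that passed it was not counted, so no result is read from these counts. Of 10 fibroblast markers, 9 had a mean above 4 in the null, 10 at P5 and 9 at P3. The summed linear signal of these 10 was 104481 to 119570 in the null, 122217 to 131003 at P5 and 103450 to 107126 at P3. In whole cultures, fewer cells of a type and less RNA per cell cannot be told apart.

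Sums of markers of other cell types differed between the groups, but 1 bright marker can carry a sum, so calls are given as well. Over all probe-sets, 0.898% rose and 0.692% fell in the null against P3, and 4.29% and 4.33% at P5 against P3. In the null against P5, 3.58% rose and 3.65% fell. The summed signal of 16 macrophage markers was 1429, 913 and 956 in null replicates 1, 2 and 3, against 425 to 478 at P5 and 565 to 612 at P3, with 11, 6 and 7 of the 16 above 4 in the null, at P5 and at P3 and Itgam at the lowest value throughout. Of these 16, Ctss alone was called in the null against P3, while 11 were higher at an unadjusted p under 0.05. None was called at P5 against P3, and 8 rose in the null against P5. The summed signal of 8 chondrocyte markers was 4561 to 5348 in the null, against 2654 to 3094 at P5 and 2749 to 2832 at P3, with Col11a2 and Matn1 at the lowest value. Of these 8, 0 were called by limma in the null against P3 (1 higher and 1 lower at an unadjusted p under 0.05), and the medians were 0.18 for the null and -0.01 for P5 against P3. At P5 against P3, Col2a1 and Acan fell, at -1.12 and -2.05, and Col11a1 rose, at 0.85. For 14 striated muscle markers the sum was 4797 to 6771 in the null, against 4455 to 5402 at P5 and 2403 to 2435 at P3, with Myod1 at the lowest value. The sum did not follow most of this list at P5, where 7 of the 14 fell (among them Actc1, at -3.93, and Myh3, at -2.58) and Acta1 alone rose, by 1.60, with a median of -1.44. In the null, 10 of the 14 rose against P3 with a median of 2.10, and 11 rose and Acta1 fell against P5. Of 8 endothelial markers, 5 were at the lowest value (Cdh5, Tek, Tie1, Pecam1 and Vwf), and the sum was 815 to 1035 in the null, 428 to 589 at P5 and 522 to 553 at P3. None of these 8 was called in the null or at P5 against P3, and Emcn and Flt1 rose in the null against P5. Of 8 epithelial markers, Krt14 and Cdh1 were at the lowest value, and the sum was 1315 to 1567 in the null, 808 to 953 at P5 and 1435 to 1593 at P3. No epithelial marker was called in the null against P3. Krt18 alone was called at P5 against P3, at -2.66, and in the null against P5, at 2.67. Of 8 neutrophil markers, 7 were at the lowest value on all arrays. The part of these cells in the protease results was not tested.

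Promoters of members were taken from RefSeq windows of assembly GRCm38.p6, which held 23 of the 37 genes. In the 250 bases before the start, 3 short motifs were searched. They were TGAGTCA, the site of AP-1, which is formed by Fos and Jun proteins and is a classic element of Mmp promoters, CTGTCA, a site of homeodomain proteins of the TALE family to which Tgif1 belongs, and TATAAA, the TATA box. AP-1 and TALE sites were searched on both strands and the TATA box on the strand of the gene, and none of the 3 contains another. The AP-1 site was found in 7 of the 9 Mmp genes that neighbour each other on chromosome 9 (Mmp1a, Mmp1b, Mmp3, Mmp7, Mmp10, Mmp12 and Mmp13) and in 0 of the 14 other members, against 4.46% of all 32851 windows. The TATA box was found in 7 of these 9 genes and in 1 of the 14 others, Adamts1, against 7.59% of all windows. The TALE site was found in 5 of the 23 genes (Timp4, Mmp7, Mmp8, Mmp23 and Adamts20), against 15.9%. A match of letters shows neither binding nor use of a site, and a window without one says nothing of the factor. The 100 bases before the start are shown for 3 members of the chromosome 9 group whose values are described array by array, for Timp2, Timp3 and Mmp23, which differed between passages, and for Adamts3, which differed in the null. Capitals mark motif matches, and each is written 5′ to 3′ on the strand of the gene.
Mmp3 (chr9:7445722-7445821, plus strand): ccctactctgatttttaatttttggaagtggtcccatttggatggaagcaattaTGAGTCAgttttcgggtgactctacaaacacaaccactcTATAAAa
Mmp10 (chr9:7502242-7502341, plus strand): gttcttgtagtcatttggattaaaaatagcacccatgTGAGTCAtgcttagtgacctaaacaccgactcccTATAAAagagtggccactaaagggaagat
Mmp13 (chr9:7272414-7272513, plus strand): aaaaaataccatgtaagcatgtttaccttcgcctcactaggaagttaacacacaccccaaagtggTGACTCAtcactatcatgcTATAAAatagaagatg
Timp2 (chr11:118355412-118355511, minus strand): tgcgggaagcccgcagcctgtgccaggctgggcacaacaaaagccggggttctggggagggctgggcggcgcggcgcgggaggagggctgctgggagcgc
Timp3 (chr10:86300312-86300411, plus strand): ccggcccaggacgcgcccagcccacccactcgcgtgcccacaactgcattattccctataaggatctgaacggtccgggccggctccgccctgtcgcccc
Mmp23 (chr4:155653385-155653484, minus strand): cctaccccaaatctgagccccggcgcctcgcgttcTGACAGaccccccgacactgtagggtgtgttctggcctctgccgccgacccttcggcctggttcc
Adamts3 (chr5:89883335-89883434, minus strand): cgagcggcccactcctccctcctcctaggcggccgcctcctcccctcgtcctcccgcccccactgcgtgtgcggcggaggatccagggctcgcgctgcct

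The inhibitors differed mainly with passage. Comparing P5 with P3, 8 of 13 Timp probe-sets rose and 0 fell (61.5% rose, where 4.29% of all probe-sets rose and 4.33% fell), all of them of Timp2 and Timp3. At an unadjusted p under 0.05, 10 were higher and 0 lower. In the null against P3, 0 Timp probe-sets were called by limma, where 0.898% of all probe-sets rose and 0.692% fell, and 1 was higher at an unadjusted p under 0.05. The null against P5, which shares its arrays with both other comparisons, had 0 risen and 8 fallen probe-sets, where 3.58% of all probe-sets rose and 3.65% fell. The median log2 difference over the 13 was 0.08 for the null against P3, 0.94 for P5 against P3 and -0.89 for the null against P5, and 0.00 over all probe-sets in each. Probe-sets of 1 gene are not independent, and the 8 calls are 2 genes. Of the 13, 10 had a mean above 4, as did 18127 to 18258 of all 45101 probe-sets on each array. The shares therefore do not compare like signals. By the selection rule of the study, recomputed here as an F test over the 3 groups at p under 0.0001 with a log2 difference of at least 0.5, 1, 6 and 6 of the 13 were selected in these comparisons, in the same order, beside 0.568%, 1.49% and 1.46% of all probe-sets.

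Timp3, which stays bound to the matrix and inhibits Adamts as well as Mmp proteases, rose on all 4 of its probe-sets at P5. The first of them (1419089_at) read 10.51, 10.95 and 11.10 in the null, 12.23, 12.42 and 12.19 at P5 and 10.79, 10.78 and 10.76 at P3. All P5 arrays lay above all others, while the null arrays surrounded those of P3. The difference of P5 from P3 was 1.51 (SE 0.15, adjusted p = 0.00302), a 2.84-fold change, and the other Timp3 probe-sets gave 1.43 (SE 0.11, adjusted p = 0.00115), 1.78 (SE 0.24, adjusted p = 0.00829) and 2.01 (SE 0.16, adjusted p = 0.00142). The dimmest of the 4, 1419088_at, read 6.15, 6.52 and 6.50 in the null, 8.18, 8.35 and 7.98 at P5 and 6.15, 6.39 and 5.93 at P3, and 1449334_at read 8.30, 8.84 and 9.12 in the null, 10.45, 10.67 and 10.23 at P5 and 8.55, 8.94 and 8.50 at P3. Both again had all P5 arrays above the rest and an overlap of null and P3. Between the null and P5 the 4 differences were between -1.78 and -0.92. One of them, 1449335_at, read 10.93, 11.06 and 11.12 in the null, 11.88, 12.19 and 11.80 at P5 and 10.50, 10.59 and 10.48 at P3. Here the null arrays all lay between the groups of wild type arrays. The null was 0.51 higher than P3 (SE 0.11, adjusted p = 0.0973), which was not called, although the recomputed selection rule took it, and the null differed from P5 by -0.92 (SE 0.11, adjusted p = 0.00569). The Timp3 gene lies inside the gene of Syn3 in the annotation.

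Timp2, which inhibits most Mmps and also takes part in the activation of Mmp2 at the cell surface, rose on 4 of its 6 probe-sets. The probe-set 1450040_at read 10.18, 10.40 and 10.20 in the null, 11.52, 11.60 and 11.28 at P5 and 10.11, 10.15 and 10.09 at P3. The P5 arrays stood well apart, and the null arrays were all just above those of P3. P5 exceeded P3 by 1.35 (SE 0.10, adjusted p = 0.000963), or 2.55-fold. For 1420924_at, the values were 6.48, 6.80 and 7.13 in the null, 9.10, 9.19 and 9.09 at P5 and 6.97, 7.26 and 6.21 at P3, a difference of P5 from P3 of 2.31 (SE 0.29, adjusted p = 0.00635). Here the null and P3 overlapped and both had a wider spread than P5. The probe-set 1433662_s_at read 12.66, 12.98 and 12.86 in the null, 13.74, 13.83 and 13.61 at P5 and 12.76, 12.79 and 12.81 at P3, and 1454677_at read 13.15, 13.33 and 13.29 in the null, 13.94, 14.04 and 13.88 at P5 and 13.25, 13.07 and 13.27 at P3. In both, P5 stood above the overlapping arrays of the other groups. Their differences of P5 from P3 were 0.94 for 1433662_s_at (SE 0.09, adjusted p = 0.00256) and 0.76 for 1454677_at (SE 0.08, adjusted p = 0.00302). The 4 fell in the null against P5 by between 0.70 and 2.32. The probe-sets of Timp2 thus agreed in direction but not in size. The probe-set with the highest mean signal, 1460287_at, read 13.69, 13.81 and 13.77 in the null, 13.90, 13.95 and 13.88 at P5 and 13.74, 13.48 and 13.75 at P3. Its P5 arrays were again the highest, but the difference from P3 was 0.25 (SE 0.08, adjusted p = 0.12) and was not called. The last, 1437081_at, was at 2.23 on 8 of 9 arrays. The Timp2 gene overlaps with Cep295nl in the annotation.

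Timp1 is an inducible, secreted inhibitor of most soluble Mmps, and its 1 probe-set read 13.96, 13.75 and 13.63 in the null, 13.95, 13.94 and 14.01 at P5 and 13.67, 13.34 and 13.67 at P3. All P5 arrays lay above all P3 arrays, and the null arrays overlapped with both groups. P5 was 0.41 higher than P3 (SE 0.12, adjusted p = 0.104), which did not pass the test but did with a filter on low signals. Timp4, an inhibitor known mainly from heart and brain, was between 2.23 and 2.34 on all arrays for both of its probe-sets. Timp1 and Timp4, like Timp3, lie inside genes of the synapsin family in the annotation.

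**Figure D1:**
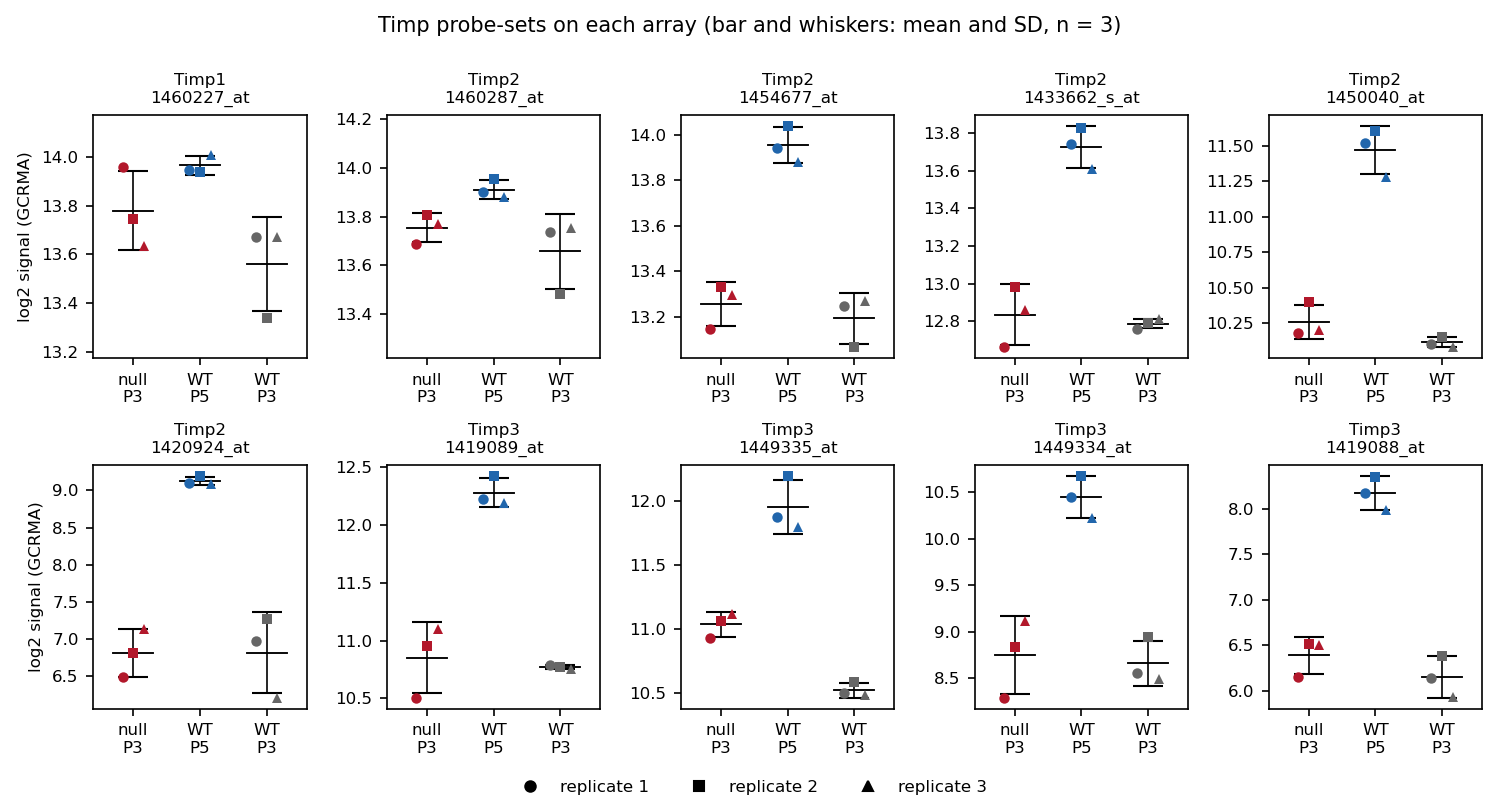
Log2 signal (vertical axis, a separate scale in each panel) of the 10 Timp probe-sets with a mean above 4, for Tgif1 null P3, wild type P5 and wild type P3 arrays, with 1 point per array and bars and whiskers for the mean and SD of 3. The P5 arrays of Timp2 and Timp3 lie above all other arrays in every panel, with Timp3 1419089_at at 12.28 ± 0.13, against 10.85 ± 0.31 in the null and 10.77 ± 0.01 at P3.

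Among the proteases, Adamts3 and Mmp10 rose and Mmp16 fell in the null against P3, and Mmp16, Mmp19, Mmp23, Adamts1, Adamts5 and Adamts12 rose at P5. These were 2 risen and 1 fallen of 57 Mmp and Adamts probe-sets in the null (3.51% and 1.75%, against 0.898% and 0.692% of all probe-sets). With 9 higher and 3 lower, more passed an unadjusted p under 0.05. Between P5 and P3, 10 probe-sets of these 6 genes rose and 0 fell by limma (17.5% rose, against 4.29%). At an unadjusted p under 0.05, 12 were higher and 3 lower. For the null against P5, 2 probe-sets of 2 genes rose and 8 of 4 genes fell (3.51% and 14.0%, against 3.58% and 3.65%). By the recomputed selection rule, 2, 4 and 5 of the 57 were selected in the null against P3, P5 against P3 and the null against P5, beside 0.568%, 1.49% and 1.46% of all probe-sets. Only 25 of the 57 had a mean above 4 over the 9 arrays, and 20 spanned less than 0.1. Of the 3 calls in the null against P3, that of Adamts3 was kept in every refit without 1 of the 9 arrays, while the total was 1 or 2. The 10 calls at P5 against P3 became 6 without P3 replicate 1 or 3 or P5 replicate 1 or 2, and 7 to 10 without each of the others.

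**Figure D2:**
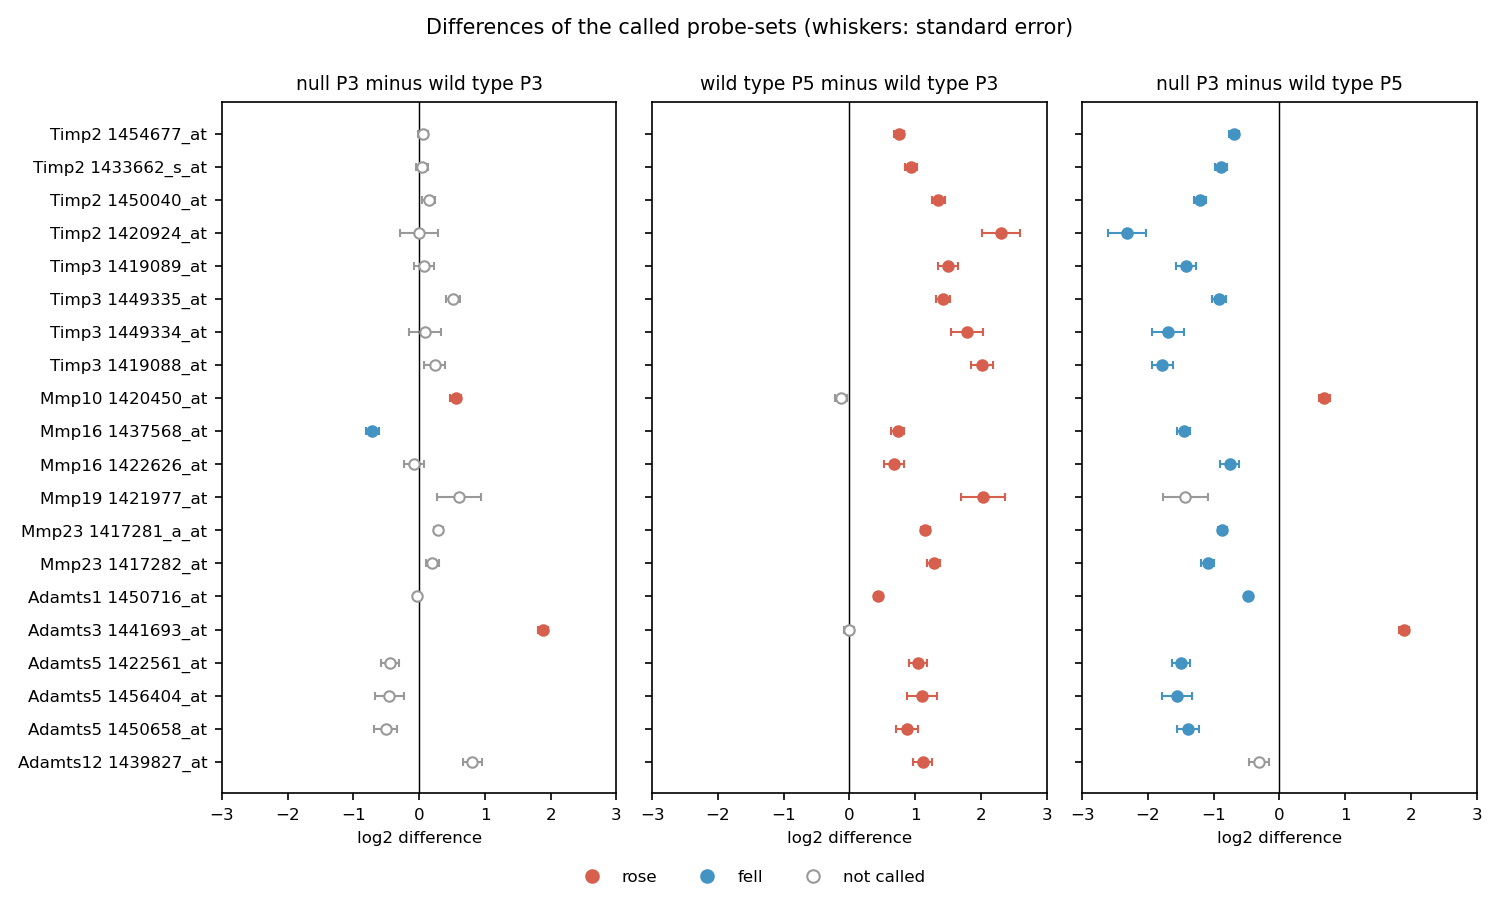
Log2 differences (horizontal axis) with standard errors for the 20 probe-sets called in at least 1 comparison, in 3 panels for null P3 minus wild type P3, wild type P5 minus wild type P3, and null P3 minus wild type P5. In the middle panel 18 points are filled as risen, and in the left panel 3 points are filled, 2 risen (Adamts3 at 1.89 and Mmp10 at 0.56) and 1 fallen (Mmp16 at -0.72).

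Adamts3, a procollagen N-proteinase that also activates the lymphatic growth factor Vegfc, stood out in the null. Its probe-set 1441693_at read 4.70, 4.74 and 4.99 in the null, 2.97, 2.90 and 2.88 at P5 and 2.97, 2.90 and 2.90 at P3. The 6 wild type arrays of both passages were nearly the same and all null arrays were far above them. The null exceeded P3 by 1.89 (SE 0.08, adjusted p = 0.000662), or 3.69-fold, and P5 by 1.89 (SE 0.08, adjusted p = 0.000187), and both calls were kept under all alternatives run. The wild type values are low, and the exact values 2.9717 and 2.8994 recur on arrays of both passages. At such levels the close spread and the lack of a passage difference say little, and the fold is uncertain. The other Adamts3 probe-set was at the lowest value on all arrays. Among the marker lists, 10 of 14 striated muscle genes rose in the null against P3 and 11 of 14 against P5, where 0.898% and 3.58% of all probe-sets rose. The summed chondrocyte markers were higher in the null as well, at 4561 to 5348, against 2654 to 3094 at P5 and 2749 to 2832 at P3, but 0 of those 8 were called against P3 (1 higher and 1 lower at an unadjusted p under 0.05), with Col2a1 higher by 1.08 and Acan and Sox9 at -0.63 and -0.23. The part of either list in the result was not tested.

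Mmp10, stromelysin 2, which cuts many matrix proteins and activates other Mmps, was also higher in the null. It read 3.93, 3.87 and 3.70 in the null, 3.07, 3.31 and 3.07 at P5 and 3.31, 3.31 and 3.21 at P3. The null arrays lay above all wild type arrays, but all values are low. The difference from P3 was 0.56 (SE 0.09, adjusted p = 0.0419) and that from P5 was 0.68 (SE 0.09, adjusted p = 0.0075). The first of these calls was lost without any 1 array other than P5 replicate 2, at adjusted p values up to 0.283 over all alternatives.

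Mmp16, a membrane-type Mmp that activates Mmp2, ordered the 3 groups. Its brightest probe-set, 1437568_at, read 6.18, 6.30 and 6.39 in the null, 7.72, 7.73 and 7.77 at P5 and 7.15, 6.80 and 7.06 at P3. No group overlapped with another, with the null lowest and P5 highest. The null differed from P3 by -0.72 (SE 0.10, adjusted p = 0.0282) and from P5 by -1.45 (SE 0.10, adjusted p = 0.000936), and P5 exceeded P3 by 0.74 (SE 0.10, adjusted p = 0.00778). A further probe-set, 1422626_at, read 4.23, 4.31 and 4.28 in the null, 5.27, 5.14 and 4.69 at P5 and 4.41, 4.41 and 4.24 at P3, with P5 above P3 by 0.68 (SE 0.15, adjusted p = 0.0414) and overlapping values in the null and at P3. The P5 call of this probe-set was lost without any 1 array other than P5 replicate 3. The last 2 probe-sets had means below 4 and were not called. The fall of Mmp16 in the null against P3 was lost without any 1 array other than P3 replicate 2, and was -0.27 (adjusted p = 0.247) for the mean of its 4 probe-sets, with adjusted p from 0.00517 to 0.247 over all alternatives.

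Mmp23, an unusual Mmp with a membrane anchor at its start and no hemopexin domain, rose at P5 on both probe-sets. Values of 1417281_a_at were 8.12, 8.07 and 8.12 in the null, 8.97, 8.91 and 9.05 at P5 and 7.91, 7.67 and 7.88 at P3. The P5 arrays stood apart and the null arrays all lay just above those of P3. P5 exceeded P3 by 1.16 (SE 0.07, adjusted p = 0.000553), or 2.23-fold, and the null differed from P5 by -0.87 (SE 0.07, adjusted p = 0.00154), while the null against P3 gave 0.29 (SE 0.07, adjusted p = 0.137). The other probe-set, 1417282_at, read 7.99, 7.96 and 7.74 in the null, 8.91, 8.94 and 9.11 at P5 and 7.85, 7.66 and 7.60 at P3. It had the same order of P5 over the others, with an overlap of the null and P3, and gave 1.28 at P5 against P3 (SE 0.10, adjusted p = 0.0012). All 4 calls of Mmp23 were kept under all alternatives run. The gene overlaps with Mib2 in the annotation.

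Mmp19, which cuts basement membrane proteins, read 4.20, 3.55 and 4.35 in the null, 5.63, 5.25 and 5.52 at P5 and 2.92, 4.03 and 3.33 at P3. The P5 arrays were the highest, and the values of the null and of P3 overlapped. P5 exceeded P3 by 2.04 (SE 0.34, adjusted p = 0.0159), or 4.10-fold, and this call was lost without P3 replicate 1 or 3 or any 1 of the P5 arrays. The null differed from P5 by -1.43 (SE 0.34, adjusted p = 0.0598), which was not called here. It was called under 4 of 17 alternatives (adjusted p from 0.00865 to 0.189 over all). Mmp19 overlaps with Tmem198b in the annotation.

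Among the Adamts proteases of proteoglycans, Adamts5 and Adamts1 rose with passage and Adamts4 and Adamts9 were not called. Adamts5, the main aggrecanase of mouse cartilage, read 10.21, 10.58 and 10.60 in the null, 12.01, 12.09 and 11.77 at P5 and 10.87, 11.05 and 10.80 at P3 on its brightest probe-set. No group overlapped with another, and as with Mmp16 the null was lowest. P5 exceeded P3 by 1.05 (SE 0.14, adjusted p = 0.00776), or 2.07-fold, and the null differed from P5 by -1.49 (SE 0.14, adjusted p = 0.00258), while the difference of the null from P3, -0.45 (SE 0.14, adjusted p = 0.282), was not called. The probe-set 1456404_at read 8.91, 9.66 and 9.66 in the null, 11.05, 11.07 and 10.76 at P5 and 9.88, 10.01 and 9.69 at P3, and 1450658_at read 6.78, 7.32 and 7.35 in the null, 8.69, 8.59 and 8.33 at P5 and 7.65, 7.70 and 7.62 at P3. The groups had the same order on these, without overlap. They gave 1.10 (SE 0.23, adjusted p = 0.0338) and 0.88 (SE 0.17, adjusted p = 0.0281) at P5 against P3, and the remaining one was at the lowest value. These last 2 calls were lost in 7 and 5 of the 9 refits without 1 array. Adamts1, which cuts versican and aggrecan, read 11.08, 11.09 and 11.07 in the null, 11.55, 11.58 and 11.53 at P5 and 11.08, 11.20 and 11.05 at P3. Its replicates were close together, so that a difference of 0.44 between P5 and P3 (SE 0.04, adjusted p = 0.00183), 1.36-fold, passed the test, and the null differed from P5 by -0.48 (SE 0.04, adjusted p = 0.00162).

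Adamts12, which is known to cut the cartilage matrix protein Comp, rose at P5 and had null values that overlapped with those of P5. It read 8.29, 7.89 and 8.12 in the null, 8.28, 8.27 and 8.69 at P5 and 7.35, 7.26 and 7.29 at P3. The null and P5 overlapped and both lay wholly above P3. P5 exceeded P3 by 1.12 (SE 0.15, adjusted p = 0.00716), or 2.17-fold. The null exceeded P3 by 0.80 (SE 0.15, adjusted p = 0.0623), which was not called here but was with a filter on low signals (adjusted p = 0.0111, and from 0.0111 to 0.245 over all alternatives), and its difference from P5 was -0.31 (SE 0.15, adjusted p = 0.363).

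**Figure D3:**
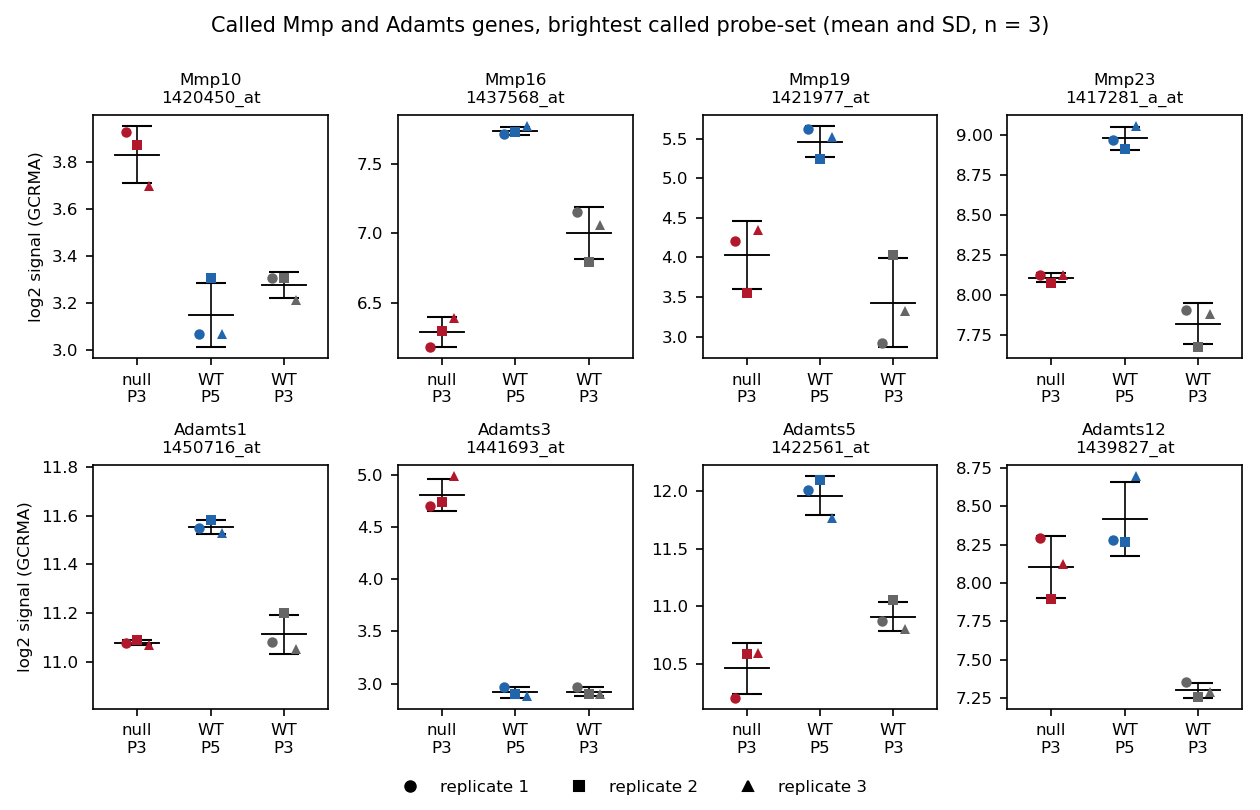
Log2 signal (vertical axis, a separate scale in each panel) of the 8 Mmp and Adamts genes with a call, shown by their brightest called probe-set for Tgif1 null P3, wild type P5 and wild type P3 arrays, with 1 point per array and bars and whiskers for the mean and SD of 3. The null arrays are highest for Mmp10 and Adamts3 (4.81 ± 0.16, against 2.92 ± 0.05 at P5 and 2.92 ± 0.04 at P3) and lowest for Mmp16 and Adamts5, and the P5 arrays are highest for the 5 genes Mmp16, Mmp19, Mmp23, Adamts1 and Adamts5.

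Mmp3, stromelysin 1, a protease often measured in the secretion of senescent fibroblasts, was not called in any comparison. It read 5.52, 5.48 and 5.43 in the null, 5.39, 5.17 and 5.62 at P5 and 5.82, 6.32 and 5.60 at P3. The null arrays lay below all P3 arrays, and P5 overlapped with both. The null differed from P3 by -0.44 (SE 0.20, adjusted p = 0.575) and P5 from P3 by -0.52 (SE 0.20, adjusted p = 0.227).

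The gelatinase Mmp2 and its activator Mmp14 had strong signals on all arrays. Mmp2 read 12.08, 11.63 and 11.59 in the null, 11.64, 11.69 and 11.80 at P5 and 11.25, 11.08 and 11.33 at P3 on its brightest probe-set. Null and P5 arrays both lay above all P3 arrays, by 0.54 (SE 0.14, adjusted p = 0.175) and 0.49 (SE 0.14, adjusted p = 0.104), and neither difference was called, although both were with a filter on low signals. The P5 difference was also called without null replicate 1 (adjusted p = 0.0189, and from 0.0189 to 0.262 over all alternatives). Mmp14, the main membrane-type Mmp, read 13.08, 12.81 and 12.79 in the null, 12.67, 12.60 and 12.83 at P5 and 12.82, 12.59 and 12.79 at P3, with all groups overlapping. Its probe-set 1440920_at had null arrays of 11.00, 10.56 and 10.83, above P5 arrays of 10.45, 10.40 and 10.50 and P3 arrays of 10.43, 10.29 and 10.48, and was not called either.

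Several proteases were highest on null replicate 1. Mmp9, gelatinase B, which macrophages and neutrophils also make, read 6.61, 3.97 and 4.64 in the null, 3.00, 2.89 and 3.04 at P5 and 3.57, 3.41 and 3.35 at P3. All null arrays exceeded all wild type arrays, with replicate 1 far above the other two. A further probe-set of Mmp9, 1448291_at, read 3.67 on null replicate 1 and 2.23 on all other arrays. The differences were 1.63 from P3 (SE 0.63, adjusted p = 0.443) and 2.10 from P5 (SE 0.63, adjusted p = 0.128), and were not called. Without null replicate 1, the difference from P5 was 1.33 and was called (adjusted p = 0.0267, and from 0.0267 to 0.318 over all alternatives). Mmp13, collagenase 3, which is made by chondrocytes and bone cells, read 6.35, 4.40 and 4.77 in the null, 4.12, 4.40 and 4.24 at P5 and 4.41, 4.01 and 3.58 at P3. The groups overlapped, and the difference of the null from P3 was 1.17 (SE 0.52, adjusted p = 0.539), or 0.58 without null replicate 1. Adamts4, an inducible aggrecanase, read 6.51, 5.59 and 5.69 in the null, 5.51, 5.68 and 5.92 at P5 and 5.93, 5.68 and 5.68 at P3, with replicate 1 again the highest array. The probe-set 1416572_at of Mmp14 had the same shape, with 9.36, 8.28 and 8.03 in the null, 8.08, 8.08 and 8.42 at P5 and 8.54, 7.62 and 8.30 at P3. Null replicate 1 also had the highest summed macrophage signal (1429, against 913 and 956 in the other null arrays), and the highest sum of the chondrocyte markers, 5348, and of the muscle markers, 6771. Among the null arrays it also had the highest fibroblast sum (119570, against 104481 and 107254), although the P5 sums were higher. Its endothelial and epithelial sums, 815 and 1315, were the lowest of the null arrays. The part of any of these cells in the protease values was not tested.

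**Figure D4:**
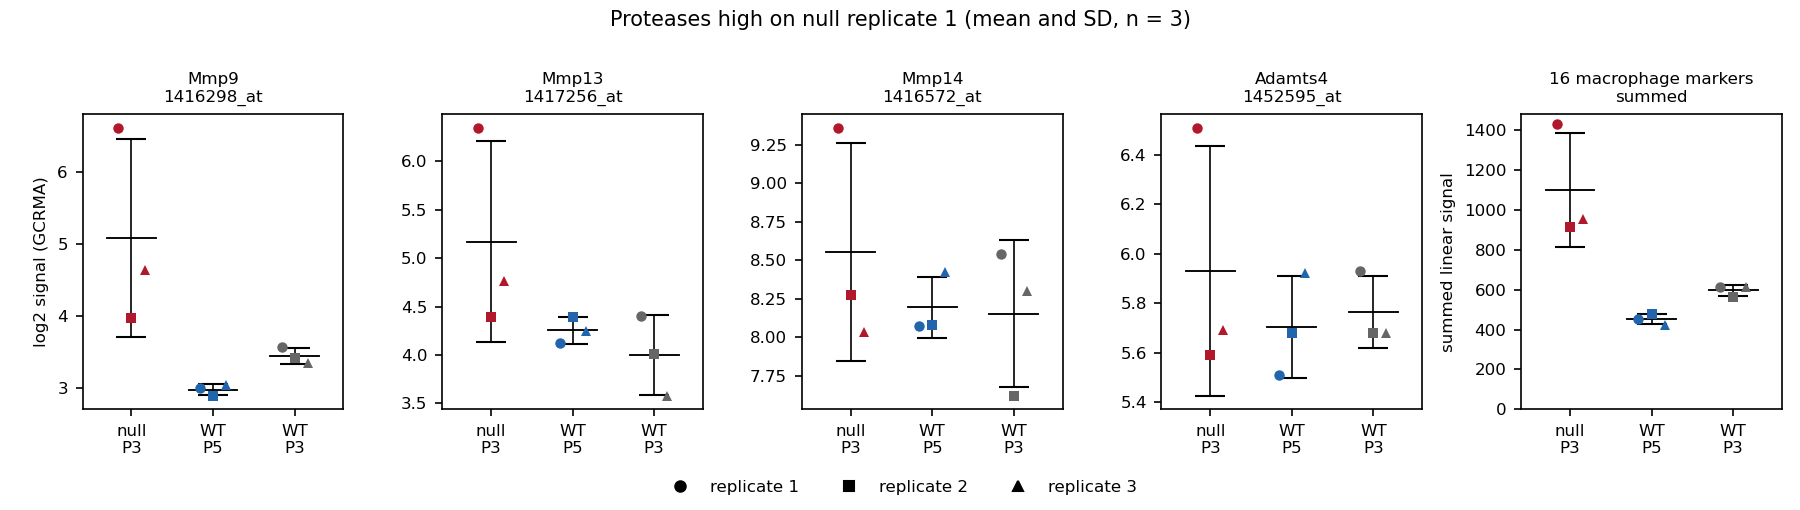
Log2 signal (vertical axes of the first 4 panels, a separate scale in each) of Mmp9, Mmp13, Mmp14 (1416572_at) and Adamts4, and the summed linear signal of 16 macrophage markers (last panel, from 0), for Tgif1 null P3, wild type P5 and wild type P3 arrays, with 1 point per array and bars and whiskers for the mean and SD of 3. Null replicate 1, the circle, is the highest array in all 5 panels, at 6.61 for Mmp9, 6.35 for Mmp13 and 1429 for the marker sum.

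The other members with a mean above 4 were not called. Mmp11, stromelysin 3, read 8.24, 8.11 and 7.80 in the null, 8.18, 8.14 and 8.16 at P5 and 8.13, 7.75 and 8.26 at P3. Mmp17, a membrane-type Mmp held by a lipid anchor, read 5.21, 4.81 and 4.92 in the null, 5.03, 5.50 and 5.28 at P5 and 5.11, 4.77 and 5.03 at P3. In both, the groups overlapped. Adamts10, which binds fibrillin microfibrils, read 6.05, 5.84 and 5.78 in the null, 5.59, 6.01 and 5.78 at P5 and 5.78, 5.71 and 5.87 at P3, and its close relative Adamts6 read 7.46, 7.09 and 7.44 in the null, 7.09, 6.96 and 7.20 at P5 and 6.77, 7.09 and 6.83 at P3. These groups overlapped as well, although Adamts6 was 0.43 higher in the null than at P3 (SE 0.13, adjusted p = 0.279). Adamts7, which like Adamts12 cuts Comp, had its lowest values at P5, with 5.71, 4.90 and 5.39 in the null, 4.15, 4.58 and 5.13 at P5 and 5.41, 5.25 and 5.73 at P3. Every P5 array lay below every P3 array, by -0.84 on average (SE 0.31, adjusted p = 0.209). This was called only with the filter on low signals (adjusted p = 0.0476, and up to 0.5 otherwise). Adamts9, a protease of versican, read 5.96, 6.10 and 6.20 in the null, 5.92, 5.68 and 5.56 at P5 and 6.06, 5.93 and 6.12 at P3. P5 was lowest, by -0.31 from P3 (SE 0.11, adjusted p = 0.18). All null arrays lay above those of P5, by 0.36 on average (SE 0.11, adjusted p = 0.131). That difference was called with the filter on low signals and for the mean of its probe-sets (adjusted p from 0.0249 to 0.394 over all alternatives). The remaining 13 genes (Mmp1a, Mmp1b, Mmp7, Mmp8, Mmp12, Mmp20, Mmp24, Adamts8, Adamts15, Adamts16, Adamts18, Adamts19 and Adamts20) had group means between 2.23 and 3.32 on their brightest probe-sets and gave no call. They include Mmp8, the neutrophil collagenase, Mmp12, the macrophage elastase, and Mmp20 of tooth enamel.

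Genes that share the work of these families were taken from lists, each gene by its brightest probe-set. Shares over all probe-sets are not a like reference for these lists. On each array, 18127 to 18258 of the 45101 probe-sets were above 4. Most listed genes were above it, such as 12 of the 16 Adam proteases and Adamts-like proteins in each group. Of 16 Adam proteases and Adamts-like proteins, 1 rose in the null against P3 and 4 rose at P5 against P3, with none falling in either, and 3 fell in the null against P5. Over all probe-sets, 0.898% rose in the null and 4.29% at P5 against P3, and 3.65% fell in the null against P5. The shared one was Adam8, a membrane-bound sheddase, at 6.56, 6.50 and 6.49 in the null, 6.96, 6.75 and 6.91 at P5 and 5.99, 5.85 and 5.97 at P3. All 3 groups were separate, and both the null (0.58, SE 0.06, adjusted p = 0.0148) and P5 (0.94, SE 0.06, adjusted p = 0.000802) exceeded P3. The other 3 were Adamtsl4 (1.57, SE 0.17, adjusted p = 0.00392), Adamtsl1 (1.26, SE 0.14, adjusted p = 0.0043) and Adamtsl3 (0.92, SE 0.18, adjusted p = 0.029), relatives of Adamts without a protease domain.

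Of 16 activators, clearance receptors and other inhibitors, 2 rose in the null against P3 (Reck and Pcolce2), and at P5 3 rose (Reck, Thbs1 and Pcsk6) and 2 fell (Lrp8 and Pcolce2), where 0.898% of all probe-sets rose in the null and 4.29% rose and 4.33% fell at P5. Reck, a membrane-anchored inhibitor of several Mmps, read 8.47, 8.52 and 8.50 in the null, 8.77, 8.85 and 8.66 at P5 and 7.98, 7.86 and 8.03 at P3. The 3 groups were separate, with P3 lowest, and Reck was called against P3 in both the null (0.54, SE 0.06, adjusted p = 0.0155) and P5 (0.80, SE 0.06, adjusted p = 0.00111). Pcolce2, which enhances the trimming of procollagen at its other end, read 10.68, 10.66 and 10.45 in the null, 9.76, 9.64 and 9.70 at P5 and 10.16, 10.19 and 10.10 at P3. It rose in the null (0.45, SE 0.07, adjusted p = 0.0369) and fell at P5 (-0.45, SE 0.07, adjusted p = 0.0113). Against P5, 3 of this list rose in the null (Pcolce2, Lrp8 and Pcsk7) and 1 fell (Pcsk6), where 3.58% of all probe-sets rose and 3.65% fell.

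Of 16 other matrix proteases, 2 rose in the null (Ctss and Tll1) and 4 rose at P5 (Tll1, Ctsk, Prss23 and Prss35), with none falling, where 0.898% and 4.29% of all probe-sets rose. Tll1, a procollagen C-proteinase, read 9.57, 9.57 and 9.74 in the null, 9.78, 9.66 and 9.87 at P5 and 8.70, 9.02 and 8.75 at P3. Null and P5 arrays overlapped and lay above P3, by 0.81 (SE 0.10, adjusted p = 0.0223) and 0.95 (SE 0.10, adjusted p = 0.00374). Ctss, a cathepsin that is also on the list of macrophage markers, was higher in the null by 1.89 than at P3 (SE 0.17, adjusted p = 0.00977), beside macrophage marker sums of 913 to 1429 in the null and 565 to 612 at P3. Against P5, 2 of the list rose in the null (Ctss and Bmp1) and 2 fell (Prss35 and Ctsk), where 3.58% of all probe-sets rose and 3.65% fell. In the plasminogen system, which activates several Mmps, 8 genes were measured and 0 were called by limma in the null against P3 (1 at an unadjusted p under 0.05). At P5 the protease inhibitor Serpinb2 rose by 0.60 (SE 0.08, adjusted p = 0.00778), and Tfpi2, an inhibitor of plasmin, fell by 1.80 (SE 0.26, adjusted p = 0.00977). Against P5, Tfpi2 rose and Serpinb2 fell in the null. Over all probe-sets, 4.29% rose and 4.33% fell at P5 against P3, and 3.58% and 3.65% in the null against P5.

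Of 19 transcription factors and cytokines known to act on Mmp genes, in either direction, 1 fell in the null against P3 (0.692% of all probe-sets did). Between P5 and P3, 7 rose and 1 fell (4.29% and 4.33% of all), and between the null and P5, 2 rose and 6 fell (3.58% and 3.65% of all). Fos, a subunit of AP-1, read 13.15, 13.19 and 13.19 in the null, 14.46, 14.63 and 14.47 at P5 and 13.49, 13.56 and 13.44 at P3. No group overlapped with another, and Fos both rose at P5 (1.02, SE 0.05, adjusted p = 0.000389) and fell in the null (-0.32, SE 0.05, adjusted p = 0.0469) against P3. Fosb (2.02, SE 0.18, adjusted p = 0.00192) and Junb (0.84, SE 0.08, adjusted p = 0.00229), further AP-1 subunits, and the cytokine Il6 (2.08, SE 0.17, adjusted p = 0.00144) rose at P5 too. The other listed AP-1 subunits were not called at P5 against P3. Among them, all P5 arrays of Fosl1 lay below those of P3 (-0.41) and all of Fosl2 above (0.39), while Jun and Jund overlapped. Over the whole list, 8 were higher and 5 lower at P5 at an unadjusted p under 0.05. In the null, all arrays of Fosb and Il6 lay below those of P3, by -0.75 (SE 0.18, adjusted p = 0.138) and -0.91 (SE 0.17, adjusted p = 0.0671), which were not called. The selection rule as recomputed here took both as lower and did not take Fos. Mmp3, Mmp10 and Mmp13, the chromosome 9 genes with an AP-1 site in the window that are described array by array, were not called between P5 and P3. The values of Mmp10 were low on all arrays, and a part of AP-1 in the protease values was not tested.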

How the data were processed

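Expression was measured on 9 Affymetrix MOE430_2.0 arrays, 3 per group, with groups taken from the sample labels. The authors normalized the scans with GCRMA and deposited log2 signals, which were not normalized again. The processing notes of the submitters name GCRMA and limma, without a version in the sources used here. GCRMA corrects each probe for background and brings arrays to 1 distribution, which can compress low signals. Probe-sets were named through a table of assembly GRCm38.p6, with 1 symbol for 34958, several for 932 and none for 9211. A model of 3 group means on the 9 arrays was fitted in limma 3.58.1 (R 4.3.3) and each comparison was tested two-sided. The p-values measure the spread between cultures, and the number of arrays limits the precision. The scripts were tested on simulated data. Named genes were every Timp gene, Mmp3, every gene with a call and every gene whose brightest probe-set had a mean above 4 in a group, and of each list up to 4 called genes with the smallest p per comparison. The remaining listed AP-1 subunits were named as well. Members and lists were chosen with earlier results of these data known. Alternatives were the selection rule of the study as recomputed here (below, the recomputed selection), a filter on low signals, a trended robust prior, quantile normalization, median centring, a replicate block, 2 groups alone, each array left out, and averaging the probe-sets of each gene. Promoters of 14 members, among them Mmp2, Mmp9, Mmp16, Mmp19 and Adamts5, were not analysed here, nor were members with no probe-set such as Mmp15 and Adamts2.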

Additional observations from a re-analysis of the deposited data

How the results depend on the processing

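The counts of Timp calls at P5 against P3 (8) and in the null against P5 (8) were 6 or more under all alternatives, and 8 in every refit without 1 array. In the null against P3, 0 Timp probe-sets were called, against 1 with only signals above 4 on 3 arrays or by the recomputed selection, and 0 to 1 without 1 array. The 3 protease calls of this comparison became 1 with a trended robust prior, 1 with the 2 groups fitted alone and 1 with the replicate block, and 1 to 2 without 1 array. The 10 protease calls at P5 against P3 became 6 with the trended robust prior, 6 with the replicate block and 4 by the recomputed selection, and 6 to 10 without 1 array. Those of the null against P5 became 5 by the recomputed selection, and 8 to 10 without 1 array. Of the single differences called, 39 were recomputed 639 times, of which 549 kept the call, 90 lost it and 0 changed sign. Of the differences not called, 28 were recomputed 470 times and became called 22 times, with the filter on low signals among them for Mmp2 in the null (adjusted p = 0.0433, and up to 0.472 otherwise) and at P5 (adjusted p = 0.0244) and for Timp1 at P5 (adjusted p = 0.0277, and up to 0.25 otherwise). A further 38 differences under 0.25 that no test called are given as levels only, and 22 of them changed sign under an alternative. Replicate numbers shared by the groups were not taken as pairs, and 3 arrays per group cannot decide whether they are. The correlation of same-numbered deviations ran from -0.42 to 0.31, and 2, 4 and 0 of 6 arrays correlated best with their own number in the null against P3, P5 against P3 and the null against P5. Outlying samples were not tested in groups of 3 arrays, and signals near 2.23 leave decreases unseen.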

Other observations

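The matrix proteins that these proteases cut were a further list, of 23 measured genes. None was called by limma in the null against P3 (9 higher and 1 lower at an unadjusted p under 0.05). At P5 against P3, 6 rose and 2 fell (4.29% and 4.33% of all probe-sets did), and in the null against P5, 2 rose and 4 fell (3.58% and 3.65% of all). The risers at P5 with the smallest p were Fbln2, a microfibril protein, by 0.51 (SE 0.04, adjusted p = 0.00106), Comp, by 1.80 (SE 0.19, adjusted p = 0.00362), Fn1, fibronectin, by 0.36 (SE 0.05, adjusted p = 0.00645) and Nid1, of basement membranes, by 0.44 (SE 0.07, adjusted p = 0.0113). Comp, which Adamts7 and Adamts12 cut, read 2.97, 2.83 and 2.97 in the null, 4.48, 5.12 and 4.68 at P5 and 3.10, 3.10 and 2.67 at P3, so that it was above the low values of the other groups at P5 alone.

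The cartilage proteins Col2a1 and Acan, which are also on the list of chondrocyte markers, fell at P5. Acan, the substrate of the aggrecanases Adamts4 and Adamts5, read 4.94, 3.57 and 3.57 in the null, 2.23, 3.16 and 2.43 at P5 and 4.60, 4.39 and 4.99 at P3. It was named after its values were seen. The P5 arrays lay below all others, by -2.05 from P3 (SE 0.45, adjusted p = 0.042). These are signals of RNA, and a link to the proteases was not tested. Col2a1 read 11.98, 11.55 and 11.44 in the null, 9.22, 9.33 and 9.80 at P5 and 10.65, 10.33 and 10.73 at P3. Its groups were all separate, and it fell at P5 by 1.12 (SE 0.22, adjusted p = 0.0274), while the null exceeded P5 by 2.20 (SE 0.22, adjusted p = 0.003).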
